A study of Homo sapiens with 10 samples.

Results

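The genes described here encode AP-1 transcription factors and other immediate early genes. They comprised FOS, FOSB, FOSL1, FOSL2, JUN, JUNB, JUND, ATF3, EGR1 and IER2, which were matched by symbol to 10 of the 63152 gene identifiers in the expression tables. The exon events with a middle exon inside these genes were added, and they amounted to 2 of the 3102 distinct events in the splicing tables, 1 in FOSB and 1 in FOSL1. The genes were chosen by family with earlier results from the same libraries known. The events were selected on the evidence for a changed exon that the splicing tables list, so their values are given as a description with no test.

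AP-1 is a dimer of basic leucine zipper proteins, formed by a Jun protein with a Fos protein, an ATF protein or a second Jun protein. Immediate early genes are transcribed within minutes of a growth factor or stress signal, without prior protein synthesis, and their mRNAs are short-lived. MAP kinases and serum response factor drive this response, and SWI/SNF complexes with BRG1 or BRM as ATPase are known to be recruited to chromatin by AP-1.

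The RNA-seq data, from cDNA primed with oligo-dT, comprised 10 libraries of C33A cells, a cervical carcinoma line that the study describes as deficient in SWI/SNF, harvested 48 h after a transient transfection by lipofection. Control cells received the empty vector pOPRSVI, BRG1-wt cells received pBJ5-BRG1, and BRG1-mut cells received pBJ5-BRG1-K798R. BRM-wt cells received pCG-hBrm and BRM-mut cells received pCG-hBrm-K798R, where the mutants lack ATPase activity. Each group had 2 samples. The study calls the ATPase samples duplicates of transfected cells, and whether those of a group were separate cultures is not given in the sources used here, so the p-values measure only the spread between these samples. The empty vector is a different plasmid from the backbones of both ATPase vectors, so the effect of a backbone and that of an ATPase cannot be told apart in a comparison with control. In a culture transfected transiently, more transfected cells and more RNA per transfected cell cannot be told apart either.

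The whole reads of each library were recovered from the deposited base means, as described in the methods, and the 2 libraries of a group are called a and b, since the base means carry no replicate numbers. The libraries held 28014718 to 39412572 reads on the genes used. A normalised read count is the number of reads of a gene divided by the size factor of its library. SMARCA4, which encodes BRG1, had normalised read counts of 47390.4 and 48045 in BRG1-wt and of 61016 and 53661 in BRG1-mut, and its counts lay between 1653 and 6725 in the other 6 libraries. SMARCA2, which encodes BRM, had counts of 53794 to 192279 in the BRM-wt and BRM-mut libraries and at most 13.6 in the others. The transfected genes thus matched the labels in every library. Of the epithelial markers, KRT8 ranged from 47.2 to 1011, KRT18 from 123 to 1316 and EPCAM from 18.6 to 46.4. CDH1 ranged from 1.86 to 11.6 and KRT19 from 0 to 4.92. The summed level of these 5 markers was 233 to 412 in control and 461 to 675 in BRG1-mut. The sum was 1962 to 2075 in BRG1-wt, 1240.1 to 2203 in BRM-wt and 312 to 554 in BRM-mut. The T-cell gene CD3E and the endothelial gene PECAM1 had no read. The other endothelial markers, CDH5 and VWF, reached at most 8.91 and 9.86, and the sum of the list was 9.29 to 11.6 in BRG1-wt, 11.6 to 13.5 in BRM-wt and at most 5.18 in the other groups. By contrast, the leukocyte gene PTPRC (1148 to 2038) and the fibroblast collagen COL3A1 (2927 to 7142) were detected in all 10 libraries. The other genes of these lists were lower, with CD14 at 1.04 to 16.1 among the leukocyte markers. Of the fibroblast markers, COL1A2 ranged from 97.4 to 428, COL1A1 from 3.01 to 83.6 and DCN from 3.10 to 16.0. The part of these marker levels in the results below was not tested.

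The sequences of the listed exons are shown because both hold whole codons and lie between an AG and a GT of the adjoining introns. FOSB exon 2 lies on chromosome 19 of GRCh37 from 45973887 to 45974207 on the plus strand, is 321 bp long, and is coding over its whole length in the transcripts FOSB-201 and FOSB-202. It holds 107 codons. FOSL1 exon 3 lies on chromosome 11 from 65661485 to 65661592 on the minus strand, is 108 bp long, and is coding over its whole length in FOSL1-201. Its 36 codons include the basic region, which contacts DNA. Both exons were rich in GC, with 67.9% for FOSB exon 2 and 65.7% for FOSL1 exon 3. The lines below give the first and the last 60 bases of FOSB exon 2 and all of FOSL1 exon 3 in capitals, with 20 bases of each adjoining intron in lower case, 5′ to 3′ on the strand of the gene.
FOSB exon 2, start (chr19:45973867-45973946, plus strand): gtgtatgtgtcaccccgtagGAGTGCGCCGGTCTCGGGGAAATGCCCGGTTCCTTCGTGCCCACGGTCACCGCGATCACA
FOSB exon 2, end (chr19:45974148-45974227, plus strand): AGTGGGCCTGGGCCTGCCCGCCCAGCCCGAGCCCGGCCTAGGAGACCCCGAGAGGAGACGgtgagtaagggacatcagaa
FOSL1 exon 3 (chr11:65661465-65661612, minus strand): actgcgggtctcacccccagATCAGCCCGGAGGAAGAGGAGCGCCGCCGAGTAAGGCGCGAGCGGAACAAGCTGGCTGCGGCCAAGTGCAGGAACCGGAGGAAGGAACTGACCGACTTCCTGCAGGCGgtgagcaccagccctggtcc

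Promoters were read for 9 of the 10 genes from RefSeq sequences of GRCh38.p14, over the 250 bases before the transcription start, with no entry used for FOSL1. ATF3 had 2 promoters, which gave 10 in all. On either strand, the AP-1 site TGAGTCA was found in 0 of these 10 promoters and in 4.20% of all 35116 promoters. The cyclic AMP response element TGACGTCA was found in 1, that of JUND, and in 1.65% of all promoters. The CArG box, bound by serum response factor, was found in 1, that of EGR1, with 2 matches, and in 1.16% of all promoters. TATAAA was found in 4 (10.7% of all), and the GC box GGGCGG in 7 (42.6% of all). No match says only that these letters are not in this window. The promoters of EGR1, the gene with the highest level, of JUND, the gene with the highest GC content, and of JUNB, the gene that varied most between libraries, are given below, with matches to the CArG box, TGACGTCA and TATAAA in capitals. These matches do not overlap each other.
EGR1 promoter (chr5:138465229-138465478, plus strand): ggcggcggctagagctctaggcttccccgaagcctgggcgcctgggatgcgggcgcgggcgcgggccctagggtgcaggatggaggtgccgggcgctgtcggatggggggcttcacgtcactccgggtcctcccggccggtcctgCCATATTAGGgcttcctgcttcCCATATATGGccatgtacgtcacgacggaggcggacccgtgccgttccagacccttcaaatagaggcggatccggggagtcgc
JUND promoter (chr19:18281623-18281872, minus strand): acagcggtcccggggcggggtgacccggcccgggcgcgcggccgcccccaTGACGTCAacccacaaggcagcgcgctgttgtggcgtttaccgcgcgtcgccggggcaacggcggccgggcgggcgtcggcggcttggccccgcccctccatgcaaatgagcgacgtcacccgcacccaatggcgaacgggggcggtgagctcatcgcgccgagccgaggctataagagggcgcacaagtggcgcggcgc
JUNB promoter (chr19:12791236-12791485, plus strand): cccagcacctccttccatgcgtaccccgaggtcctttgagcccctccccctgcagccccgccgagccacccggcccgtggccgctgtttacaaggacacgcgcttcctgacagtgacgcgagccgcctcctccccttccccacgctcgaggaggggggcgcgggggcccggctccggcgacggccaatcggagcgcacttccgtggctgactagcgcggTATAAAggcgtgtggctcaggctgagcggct

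All 10 genes were transcribed in C33A cells, and all 10 passed the filter of a mean of at least 10 reads over the libraries. EGR1, a zinc finger factor, had the highest mean level per length, with 2456 normalised reads per kb of exon, and was followed by FOSL2 with 769. IER2, a nuclear protein of the early response, reached 431 normalised reads per kb, JUN 286 and ATF3 212. JUND with 151 and FOS with 141 came next, and FOSL1 with 93.2 and JUNB with 88.2 stood close to each other. FOSB had the lowest level, with 16.8 normalised reads per kb. Over the 10 libraries the range of EGR1 lay wholly above that of FOSL2, whereas each of the other neighbours in this order had overlapping ranges.

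Proteins of the Fos family pair with Jun proteins in AP-1. Of this family, FOS (ENSG00000170345, chromosome 14 from 75745529 to 75748933) had normalised read counts of 465 and 366 in control, 429.7 and 479 in BRG1-wt and 658 and 484 in BRG1-mut. In BRM-wt the counts of FOS were 293 and 429, and in BRM-mut they were 579 and 309. The 2 BRG1-mut libraries lay above both control libraries, and the other groups overlapped with control. FOSB (ENSG00000125740, chromosome 19 from 45971253 to 45978437) had 127 and 64.3 in control, 82.9 and 66.1 in BRG1-wt, 159 and 104 in BRG1-mut, 63.6 and 94.7 in BRM-wt and 113 and 57.3 in BRM-mut, and each group overlapped with control. FOSB rested on 57 to 171 reads per library.

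FOSL1 (ENSG00000175592, chromosome 11 from 65659520 to 65668044) encodes FRA1, a Fos protein without the strong activation domain of FOS. Its normalised read counts were 139.6 and 102 in control, 194 and 209.6 in BRG1-wt, 237 and 236 in BRG1-mut, 139 and 262 in BRM-wt and 154 and 84.4 in BRM-mut. The libraries of BRG1-wt and of BRG1-mut lay above both control libraries, and the 2 BRG1-mut libraries differed by a factor of 1.01. FOSL2 (ENSG00000075426, chromosome 2 from 28615315 to 28640184) encodes FRA2 and had 5208 and 4051 in control, 5928 and 6896 in BRG1-wt, 5897 and 4711 in BRG1-mut, 6612 and 7043 in BRM-wt and 4973 and 3739.6 in BRM-mut. For FOSL2 both wild-type ATPases lay above control in each library, and neither mutant did so in each library. BRG1-mut a, at 5897, lay above both control libraries and was close to BRG1-wt a at 5928.

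**Figure D1:**
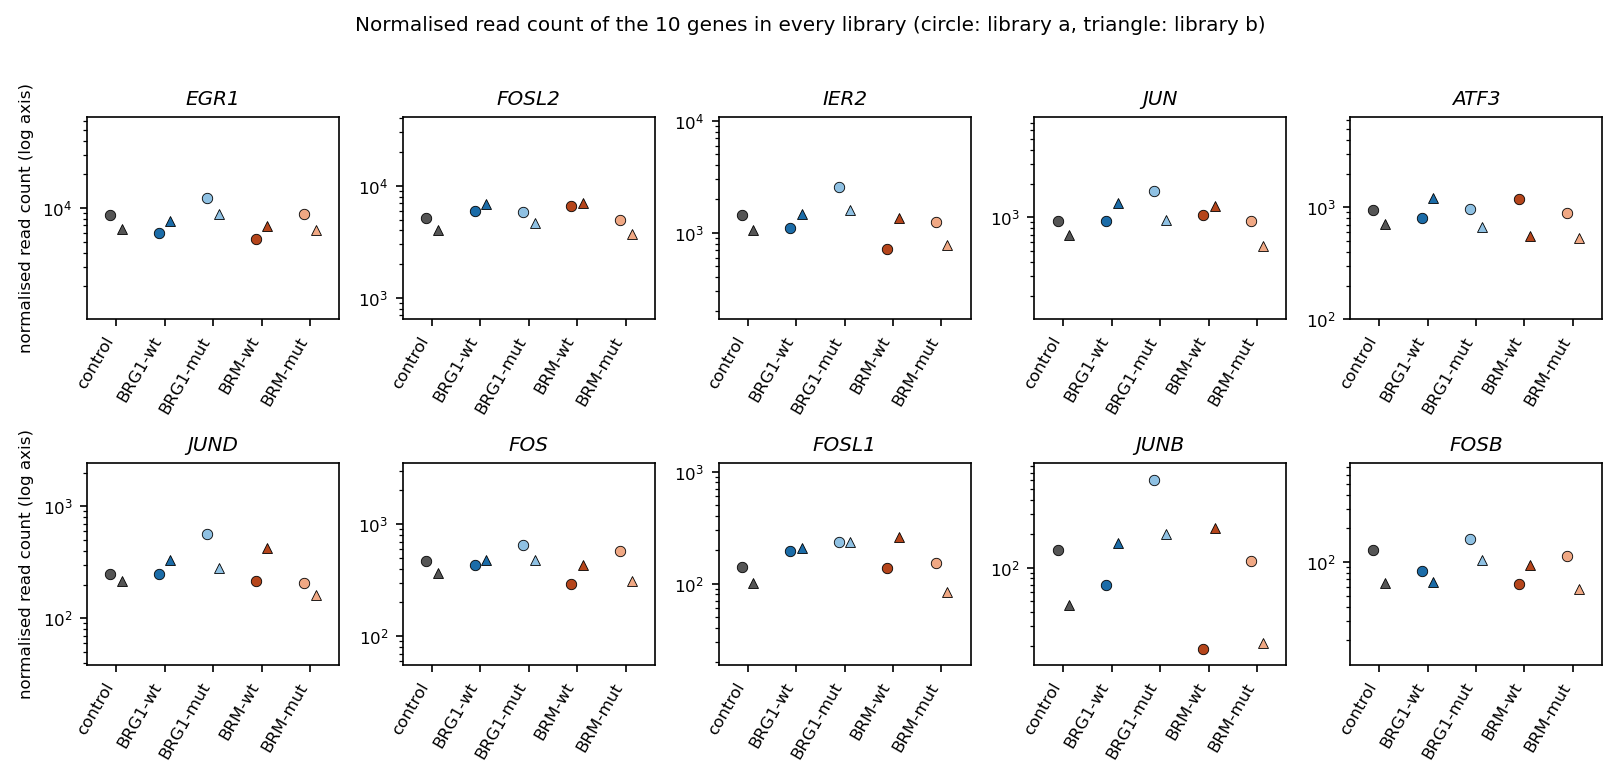
Normalised read count (log axis, the same span of folds in each panel) of the 10 genes in the 5 groups, from the highest to the lowest level per length, with library a as a circle and library b as a triangle. JUNB spread from 18.8 to 609, whereas the libraries of FOSL2 stayed between 3739.6 and 7043.

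Of the Jun family, JUN (ENSG00000177606, chromosome 1 from 59242517 to 59249720), the partner with the strongest activation domain, had 933 and 694 in control, 934 and 1339 in BRG1-wt, 1732 and 941 in BRG1-mut, 1040.3 and 1255 in BRM-wt and 935 and 554 in BRM-mut. In 3 groups both libraries of JUN lay above control, but in BRG1-wt and BRG1-mut the lower library, at 934 and 941, was close to the higher control library at 933. JUNB (ENSG00000171223, chromosome 19 from 12902300 to 12904129), a weaker activator that can oppose JUN, had 143 and 46.7 in control, 69.5 and 167 in BRG1-wt, 609 and 199.8 in BRG1-mut, 18.8 and 225 in BRM-wt and 114 and 21.1 in BRM-mut. The 2 libraries of a group differed by a factor of 2.41 to 12.0 for JUNB, and the lowest and highest of the 10 by a factor of 32.4. JUND (ENSG00000130522, chromosome 19 from 18390504 to 18392432), the Jun gene that is expressed most constantly in most tissues, had 249 and 216 in control, 249.6 and 330.4 in BRG1-wt, 569.9 and 279 in BRG1-mut, 217 and 427 in BRM-wt and 206 and 162 in BRM-mut. Both libraries of JUND lay above control in BRG1-wt and in BRG1-mut, but the lower BRG1-wt library, at 249.6, was close to the higher control library at 249. JUND was the only one of the 10 genes with both libraries of a group below control, in BRM-mut.

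ATF3 (ENSG00000162772, chromosome 1 from 212738676 to 212794119), a stress-induced partner of Jun proteins, had 957 and 715 in control, 810.3 and 1201 in BRG1-wt, 977 and 669 in BRG1-mut, 1183 and 555 in BRM-wt and 899 and 530.4 in BRM-mut. Each group of ATF3 overlapped with control. EGR1 (ENSG00000120738, chromosome 5 from 137801168 to 137804992) had 8603 and 6442 in control, 5971 and 7700.4 in BRG1-wt, 12380.3 and 8749.8 in BRG1-mut, 5274 and 6834 in BRM-wt and 8747 and 6334 in BRM-mut. IER2 (ENSG00000160888, chromosome 19 from 13261225 to 13265725) had 1434 and 1053 in control, 1097 and 1466 in BRG1-wt, 2532 and 1609.5 in BRG1-mut, 712 and 1365 in BRM-wt and 1242 and 773 in BRM-mut. For EGR1 and IER2 the 2 BRG1-mut libraries were the highest of all 10 libraries, but for EGR1 the lower of them, at 8749.8, was close to BRM-mut a at 8747.

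The effect of each ATPase on these genes was compared with the empty vector in 1 fit across 16540 genes with limma, in which the 4 groups share the same 2 control libraries. No member passed an adjusted p of 0.05 in any of the 6 comparisons. In BRG1-wt against control 0.230% of all genes passed, and an unadjusted p under 0.05 was found for 1 of the 10 members and for 4.11% of all genes. This was FOSL2, with a log2 difference of 0.48 ± 0.19 (SE, limma, 95% interval 0.025 to 0.93, adjusted p = 0.988). In BRG1-mut against control 0% of all genes passed, not even the transfected SMARCA4, with means of 57339 against 3347 (log2 difference 4.13, limma, adjusted p = 0.717). An unadjusted p under 0.05 was found for 1.44% of all genes and for 1 member, FOSL1, at 0.99 ± 0.38 on the log2 scale (SE, limma, 95% interval 0.09 to 1.89, adjusted p = 0.717). BRM-wt against control gave 0.272% of all genes at the adjusted and 4.13% at the unadjusted threshold, where FOSL2 was the only member, at 0.57 ± 0.19 (SE, limma, 95% interval 0.12 to 1.02, adjusted p = 0.775). In BRM-mut against control 0.00605% of all genes passed, which was SMARCA2 alone, and 0 members and 0.580% of all genes had an unadjusted p under 0.05. With the voom weights of limma, 0 members passed and the counts of members with an unadjusted p under 0.05 were the same in each comparison.

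JUNB had the largest difference of the members, 2.08 ± 1.31 on the log2 scale in BRG1-mut against control, with means of 404 ± 289 and 95.1 ± 68.5 (SD, n = 2), but its 95% interval ran from -0.97 to 5.14 (limma, adjusted p = 0.717). Differences of this gene between -0.97 and 5.14 are therefore not separated by these libraries. The intervals of FOSL2, the least variable member, were the narrowest, and in BRG1-mut against control it ran from -0.25 to 0.65.

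The need for ATPase activity was addressed by comparing each wild-type ATPase with its mutant, in which the control libraries enter only the shared estimate of the spread. The study reports slightly more protein of each wild-type ATPase than of its mutant. ATPase activity and protein amount therefore cannot be told apart in these comparisons, nor in those of the AP-1 targets below. In BRG1-wt against BRG1-mut 0.0726% of all genes passed and 0 members, with 1 member and 3.77% of all genes at an unadjusted p under 0.05. This was EGR1, which had 6836 ± 1223 in BRG1-wt and 10565 ± 2567 in BRG1-mut (SD, n = 2), a log2 difference of -0.62 ± 0.26 (SE, limma, 95% interval -1.22 to -0.012, adjusted p = 0.991). In BRM-wt against BRM-mut 0.230% of all genes passed and 0 members, and FOSL2 was the only member with an unadjusted p under 0.05, as 4.45% of all genes had. Its means were 6828 ± 305 in BRM-wt and 4356 ± 872 in BRM-mut (SD, n = 2), with a log2 difference of 0.66 ± 0.19 (SE, limma, 95% interval 0.21 to 1.11, adjusted p = 0.522).

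**Figure D2:**
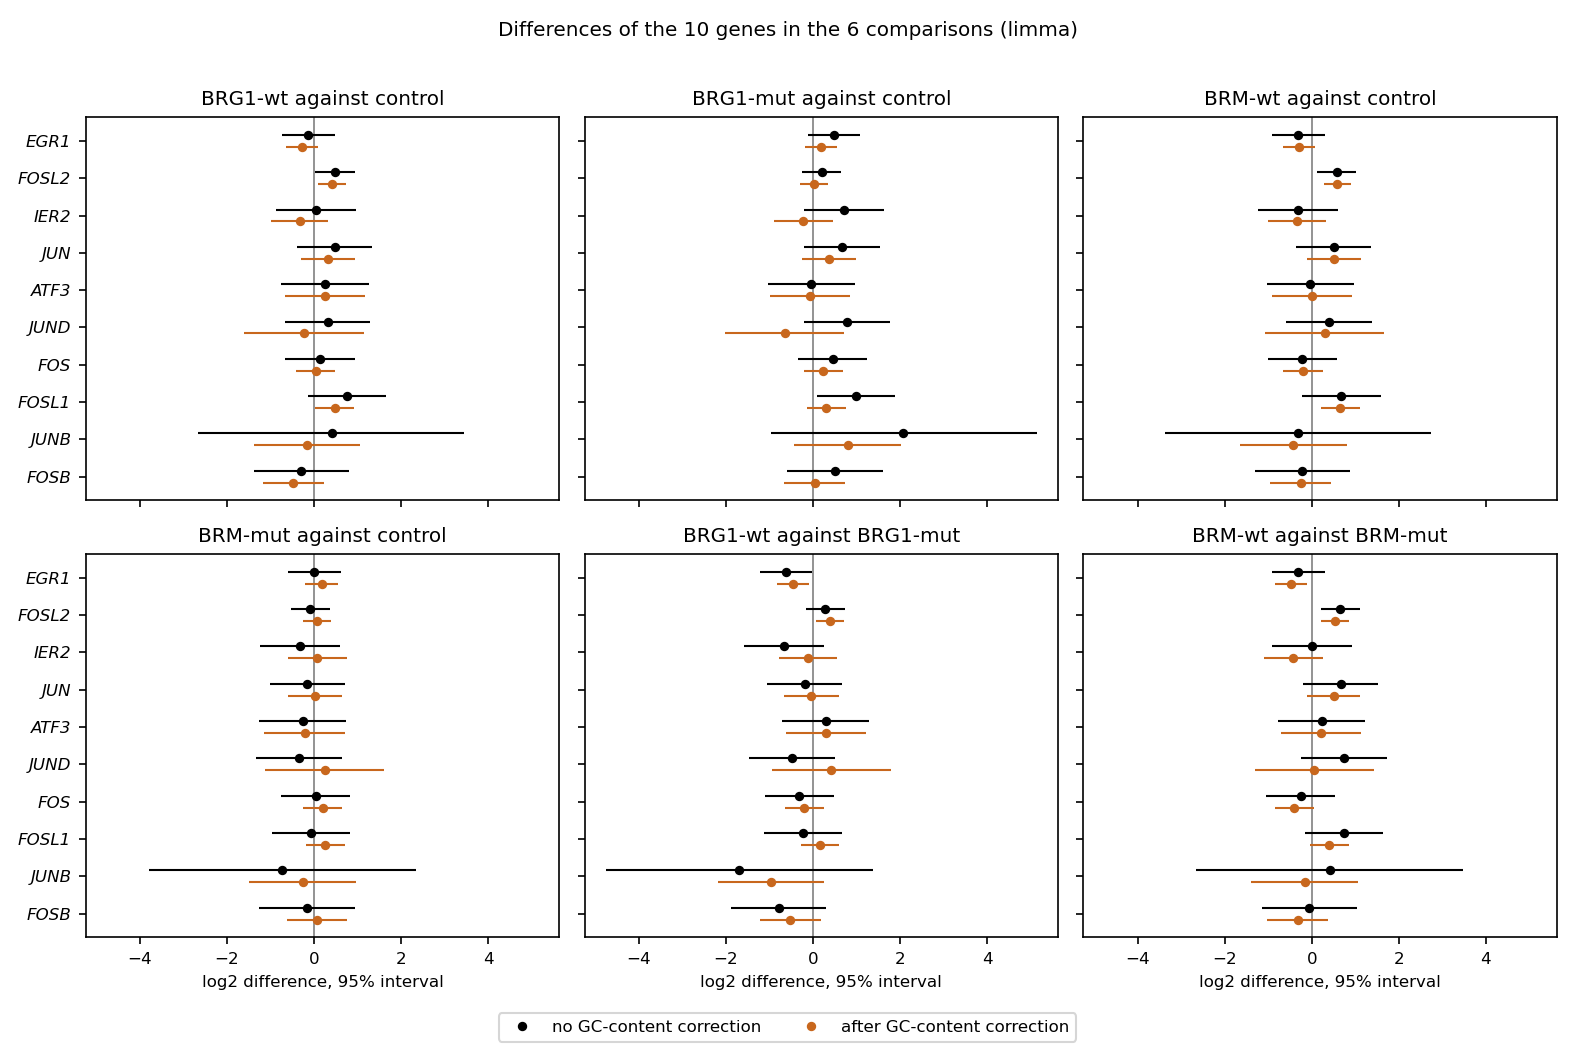
Log2 difference (horizontal axis) of each gene with its 95% interval in the 6 comparisons, from limma without (black) and with (orange) a correction for GC content. The black interval of JUNB is the widest in each panel, from -0.97 to 5.14 in BRG1-mut against control. That of FOSL2 lies above 0 for BRG1-wt and BRM-wt against control and for BRM-wt against BRM-mut. In BRG1-wt against BRG1-mut it runs from -0.17 to 0.73.

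With 2 libraries in each group, the separation of the libraries was read against that of all genes. In BRG1-mut, 7 of the 10 members (FOS, FOSL1, JUN, JUNB, JUND, EGR1 and IER2) had both libraries above both control libraries, as did 30.8% of all genes, and 0 members had both below, against 26.4% of all genes. In BRG1-wt, 4 members (FOSL1, FOSL2, JUN and JUND) were above control, with 17.5% of all genes above and 20.0% below. The 2 members above control in BRM-wt were FOSL2 and JUN, with 9.44% of all genes above and 9.18% below. JUND was below control in BRM-mut, where 8.95% of all genes were below and 10.4% above. In BRG1-wt against BRG1-mut, 6 members (FOS, FOSB, FOSL1, JUNB, EGR1 and IER2) were below and FOSL2 was above, with 29.3% of all genes below and 19.5% above. In BRM-wt against BRM-mut, FOSL2, JUN and JUND were above, with 9.24% of all genes above and 9.92% below. The median log2 difference of the members from control was 0.59 in BRG1-mut and 0.28 in BRG1-wt, and those of BRM-wt and BRM-mut were -0.12 and -0.16, with medians of all genes between -0.019 and 0.0071.

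The libraries also differed in how the level of a gene depended on its GC content. All 10 members had an exonic GC content above the median of 47.3% of the genes tested, from 50.2% in ATF3 to 64.9% in JUNB and 69.9% in JUND, and the value of JUND was higher than that of 99.8% of genes. Measured as the median log2 deviation of the 10% of genes with the highest GC content minus that of the 10% with the lowest, the trend was 1.31 and 0.73 in BRG1-mut, the largest of any group mean. It was 0.25 and -0.78 in control, 0.059 and 0.51 in BRG1-wt, -1.49 and 1.12 in BRM-wt and -0.071 and -1.58 in BRM-mut. JUNB had its lowest counts, 18.8 and 21.1, in the 2 libraries with the lowest trend, and its highest, 609, in the library with the highest.

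When the median deviation of genes with like GC content was subtracted in each library, the pooled SD of the 2 libraries of a group decreased from 1.59 to 0.66 on the log2 scale for JUNB and from 0.42 to 0.18 for FOSL1. It was unchanged to 2 decimals for ATF3, at 0.51, and it increased from 0.48 to 0.76 for JUND, whose GC content lies at the end of the range. The log2 difference of JUNB between BRG1-mut and control was then 0.80 (95% interval -0.43 to 2.03), that of IER2 changed from 0.72 to -0.22, and that of JUND from 0.78 to -0.65. The median of the members was 0.11 in this comparison after the correction, and against control it turned from 0.28 to -0.065 in BRG1-wt and from -0.16 to 0.07 in BRM-mut, and was -0.10 in BRM-wt. FOSL2 kept differences of 0.41 in BRG1-wt against control, 0.59 in BRM-wt against control and 0.54 in BRM-wt against BRM-mut. In BRG1-wt against BRG1-mut its difference was 0.28 (95% interval -0.17 to 0.73) before the correction and 0.39 (95% interval 0.072 to 0.71) after it. The adjusted p-values of FOSL2 from limma after the correction were 0.131 or more. FOSL1 had a difference of 0.66 (95% interval 0.21 to 1.10) in BRM-wt and 0.31 (95% interval -0.14 to 0.75) in BRG1-mut, each against control. After the correction 0 members passed in the 6 comparisons. The share of all genes that passed was then 1.12% in BRG1-wt, 0.00623% in BRG1-mut, 1.10% in BRM-wt and 0.00623% in BRM-mut against control, 0.692% in BRG1-wt against BRG1-mut and 1.03% in BRM-wt against BRM-mut. The part of the GC trend in the results for single genes was not tested further.

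**Figure D3:**
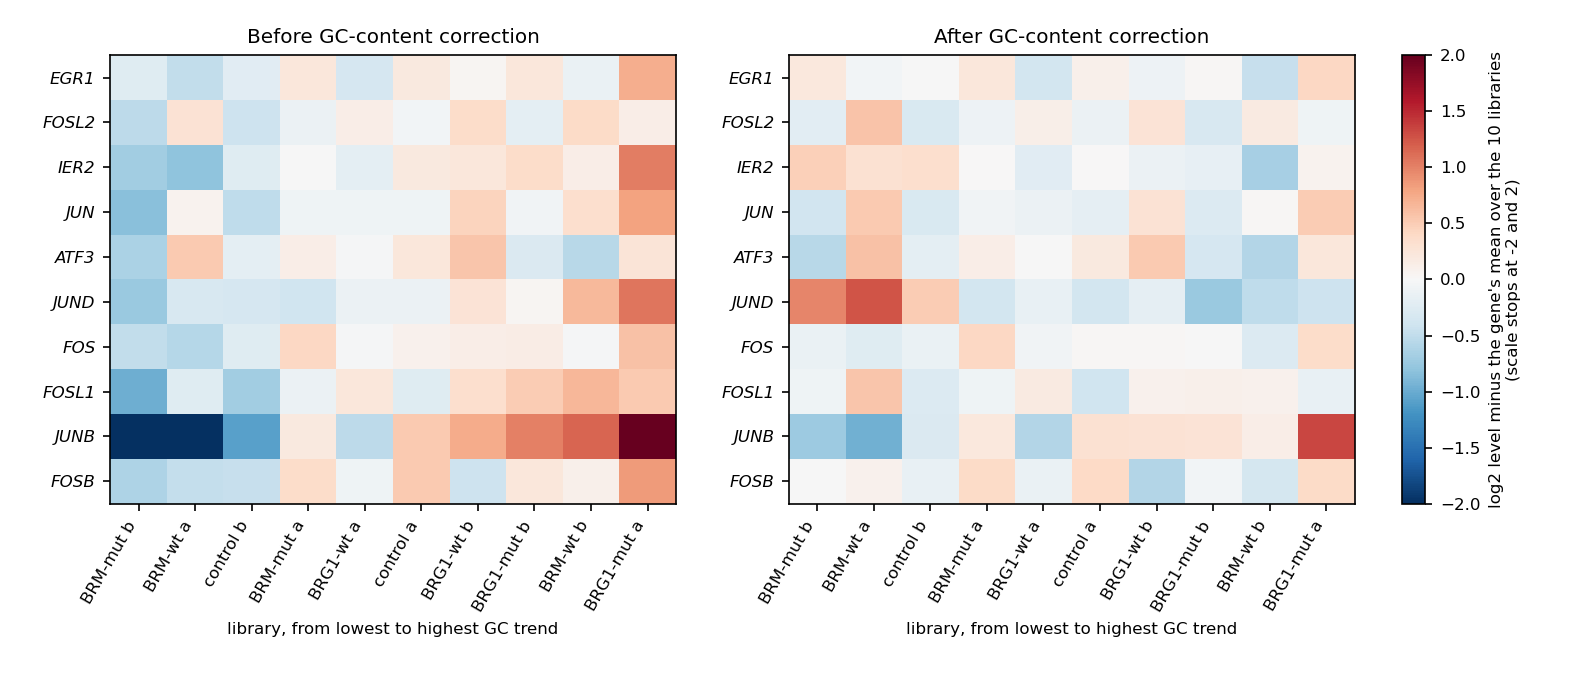
Log2 level of each gene minus its mean over the 10 libraries (colour, from -2 to 2), with libraries ordered from the lowest to the highest GC trend, before (left) and after (right) the correction. On the left most genes go from blue to red along the order, most steeply JUNB, and on the right JUND has its highest values in the 2 libraries with the lowest trend.

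The splicing tables of MISO set a single ATPase library beside the control with its replicate number, and give the PSI (percent spliced in), here the included share of an exon as a fraction. The 8 tables held 396 to 977 events, and FOSB exon 2 or FOSL1 exon 3 was listed 5 times in 4 of them. FOSB exon 2 had a PSI of 0.07 in control and 0.61 in BRG1-mut in replicate 1, and of 0.1 and 0.88 in replicate 2. In BRM-wt the PSI was 0.61 in replicate 1, against the same control library at 0.07. The event joins exon 1 to exon 2 and exon 2 to the last exon. Transcripts with a further exon before the last, as in FOSB-201, match neither form as a whole, but their reads in exon 2 can count as inclusion. Their part in the PSI was not tested. FOSL1 exon 3 had a PSI of 0.24 in control, 0.78 in BRG1-wt and 0.74 in BRG1-mut, all in replicate 1. The PSI was higher in the ATPase library in all 5 listings, as it was in 53.5% of the 5191 listings of all genes. Of the 5, 4 share the control library of replicate 1 and are not separate observations. Both exons are those whose sequence is given above, with a GC content of 67.9% in FOSB and 65.7% in FOSL1. The part of the GC trend of the libraries in these PSI values was not tested.

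The depth behind these PSI values was small. FOSB as a whole gene had 62 and 131 reads in the control libraries, 94 and 171 in BRG1-mut and 71 and 77 in BRM-wt, and FOSL1 had 98 and 144 in control, 203 and 218 in BRG1-wt and 214 and 255 in BRG1-mut. The reads that bear on 1 exon are a part of these. A gene without a listing can have had too few reads for one, so the 8 members without an event are not shown to be spliced alike in all groups.

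**Figure D4:**
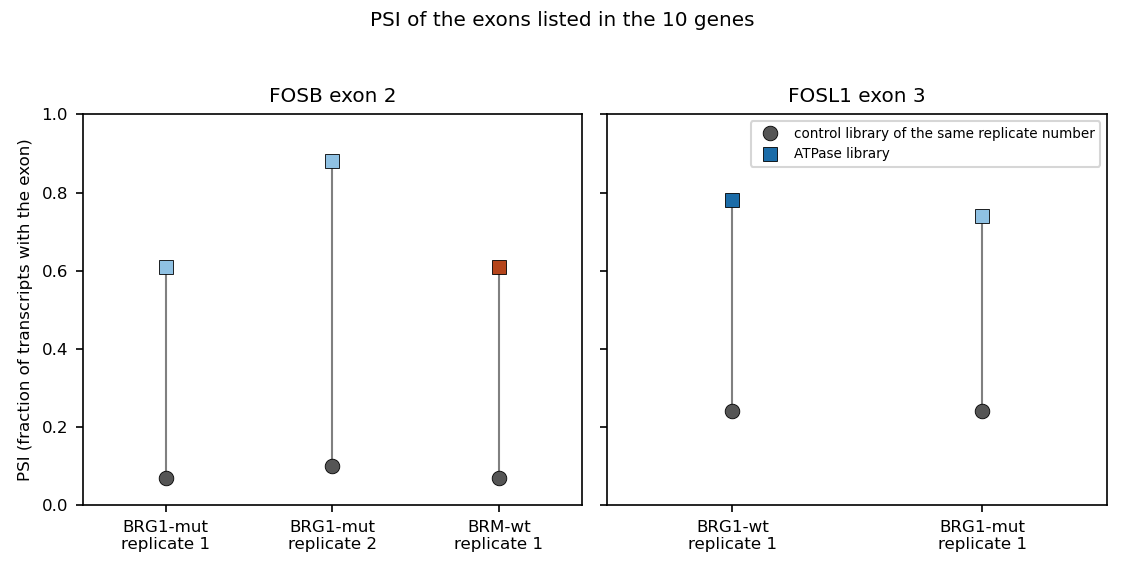
PSI (vertical axis, fraction from 0 to 1) of FOSB exon 2 and FOSL1 exon 3 in each listing, control as a circle, the ATPase library as a square, and a line joining the pair. Each square lies above its circle, at 0.61 to 0.88 for FOSB and at 0.74 and 0.78 for FOSL1.

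Other genes of the pathway were taken from lists. Of 32 other immediate early genes, 31 were tested, and 0 passed in each of the 6 comparisons. Their median log2 difference from control was 0.20 in BRG1-wt, 0.19 in BRG1-mut, 0.072 in BRM-wt and -0.065 in BRM-mut. At an unadjusted p under 0.05 there were 9 of these genes in BRG1-wt, 2 in BRG1-mut, 10 in BRM-wt and 0 in BRM-mut (limma), against 4.11%, 1.44%, 4.13% and 0.580% of all genes. With the mutant in place of control there were 4 in BRG1-wt and 9 in BRM-wt, beside 3.77% and 4.45% of all genes. After the correction for GC content SGK1, a kinase, and PHLDA1 passed in BRG1-wt and in BRM-wt against control and in BRM-wt against BRM-mut, and SGK1 also in BRG1-wt against BRG1-mut, higher in each. The correction raised the number of all genes called, from 38 to 180 in BRG1-wt and from 45 to 177 in BRM-wt against control. It rose from 12 to 111 in BRG1-wt against BRG1-mut and from 38 to 166 in BRM-wt against BRM-mut. Of 17 tested bZIP partners and 20 upstream kinases and factors 0 passed with limma, and their medians lay between -0.14 and 0.051. At an unadjusted p under 0.05 there were at most 2 bZIP partners and 0 upstream genes in a comparison. Of the heat shock and stress genes 8 were tested and 0 passed, with at most 2 at an unadjusted p under 0.05. Their median log2 difference from control was 0.53 in BRG1-wt, 0.73 in BRG1-mut, 0.20 in BRM-wt and 0.021 in BRM-mut.

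Of 19 known targets of AP-1, 14 were tested, and MMP1 and CD44 rose in BRG1-wt and in BRM-wt against control, where 0.230% and 0.272% of all genes passed, all of them higher. MMP1, the interstitial collagenase whose promoter served to define the AP-1 site, had normalised read counts of 131 and 112 in control, 754 and 935 in BRG1-wt, 120.1 and 110.4 in BRG1-mut, 1587 and 813 in BRM-wt and 129.6 and 147 in BRM-mut. Its log2 difference was 2.79 ± 0.31 in BRG1-wt (SE, limma, adjusted p = 0.0267) and 3.22 ± 0.31 in BRM-wt (SE, limma, adjusted p = 0.0145). CD44, a hyaluronan receptor, had 9.69 and 2.07 in control, from 10 and 2 reads, and 201 and 286 in BRG1-wt, 11.2 and 11.0 in BRG1-mut, 473 and 220.1 in BRM-wt and 6.91 and 5.02 in BRM-mut. The log2 difference of CD44 was 5.55 ± 0.66 in BRG1-wt and 5.98 ± 0.66 in BRM-wt (SE, limma, adjusted p = 0.0297 and 0.0190). The summed level of the epithelial markers was also higher in these 4 libraries, at 1240.1 or more, than in the other 6, at 675 or less. EPCAM, CDH1 and KRT19 reached at most 46.4, 11.6 and 4.92 in any library, so in these 4 the sum rested mostly on KRT8 and KRT18. The summed level of the endothelial markers was higher there too, at 9.29 or more against 5.18 or less. The part of both sums in these differences was not tested.

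The wild-type ATPases were also compared with their mutants for these targets. MMP1 was higher in BRG1-wt than in BRG1-mut (log2 difference 2.86 ± 0.31, SE, limma, adjusted p = 0.0367) and in BRM-wt than in BRM-mut (3.04 ± 0.31, adjusted p = 0.0189). CD44 passed in BRM-wt against BRM-mut (5.67 ± 0.66, adjusted p = 0.0273), and in BRG1-wt against BRG1-mut it had 4.37 ± 0.66 (limma, adjusted p = 0.0902). The target median was 0.59 in BRG1-wt and 0.59 in BRM-wt on the log2 scale, and 0.31 in BRG1-mut and -0.13 in BRM-mut, all against control. The direction of MMP1 and CD44 did not depend on a single library, with log2 differences of 2.55 or more whichever library was left out, but the calls did. For MMP1, the calls of BRG1-wt against control and against BRG1-mut were lost on leaving out any single library of control, BRG1-wt, BRG1-mut or BRM-mut (adjusted p up to 0.286 and 0.438 with limma). Its call of BRM-wt against control was lost without either library of control or BRG1-wt (up to 0.114), and that against BRM-mut without either library of BRG1-wt, BRG1-mut or BRM-mut (up to 0.141). For CD44, the call of BRG1-wt against control was lost on leaving out any single library of control, BRG1-wt, BRG1-mut or BRM-mut (up to 0.308). The call of BRM-wt against control was lost on leaving out control b, BRM-wt a or any single library of BRG1-wt or BRG1-mut (up to 0.106), and that against BRM-mut on leaving out BRM-wt a or any single library of BRG1-wt, BRG1-mut or BRM-mut (up to 0.194). Fitting only the groups compared also ended the calls of BRM-wt against control (adjusted p = 0.375 for MMP1 and 0.406 for CD44, limma). Voom weights ended those of BRG1-wt against control (0.0565 and 0.0706) and that of MMP1 against BRG1-mut (0.0625), and upper-quartile scaling that of MMP1 in BRG1-wt against control (0.0514).

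**Figure D5:**
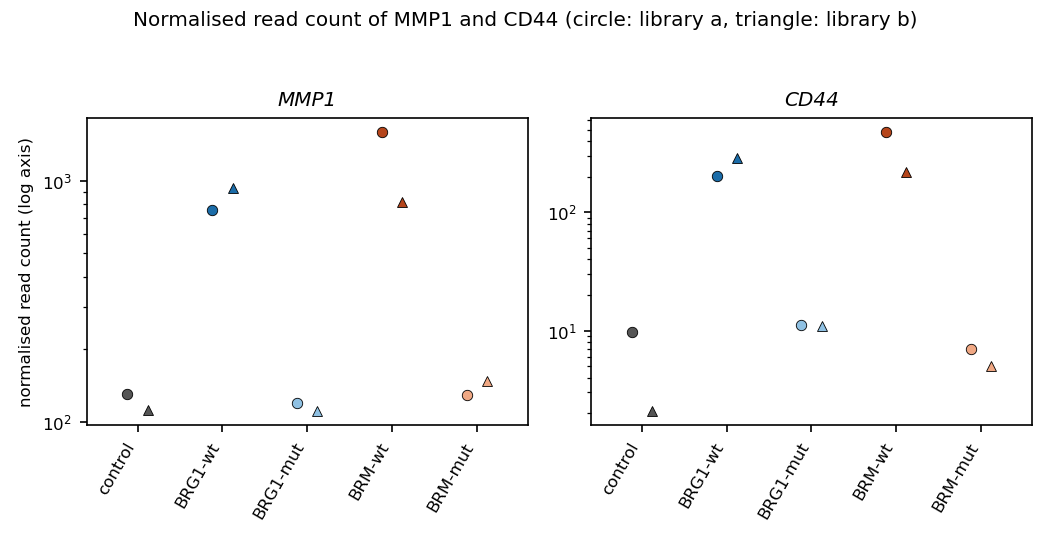
Normalised read count (log axis) of MMP1 and CD44 in the 5 groups, with library a as a circle and library b as a triangle. For MMP1 the 4 libraries with a wild-type ATPase sit between 754 and 1587 and the other 6 between 110.4 and 147.

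The members followed each other across the libraries to different degrees. Over the 10 libraries, which share the GC trend above, the member closest in pattern to JUNB was IER2 (Pearson r = 0.977, a description with no test), and the closest to FOS and to EGR1 was also IER2 (r = 0.905 and 0.906). JUN and JUND were closest to each other, with r = 0.899. ATF3, the member with the lowest GC content at 50.2%, stood apart, with JUN as its closest member at r = 0.522. These correlations are of levels without the GC correction, and the part of the GC trend in them was not tested. Of all genes, the one closest to JUNB was NDUFB6 (r = 0.995), to IER2 PAM16 (r = 0.986), to FOSL1 PIK3CD (r = 0.987), to FOSL2 TGM2 (r = 0.975) and to JUN TRAPPC2B (r = 0.971). For JUND it was CDKN2A (r = 0.972), for EGR1 CYP26B1 (r = 0.967), for FOS ASPHD2 (r = 0.957), for ATF3 MICB (r = 0.959) and for FOSB BLOC1S4 (r = 0.935). Each of these genes was picked as the closest of the 16540 genes tested.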

How the data were processed

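RNA was prepared 48 h after transfection from 10 samples in 5 groups of 2. Reads were mapped by the authors with TopHat2 2.0.4 to GRCh37 and counted per gene with HTSeq 0.6.1, and whether the counting used strand is not given in the sources used here. The deposited expression tables hold the base mean, a signal that the authors computed with DESeq2 as the mean over 4 libraries of the counts divided by size factors. The deposited splicing tables give the PSI as a fraction, computed by the authors with MISO for events with a Bayes factor above 10. The authors' fold changes, p-values and Bayes factors were not used, and 1 expression table was a second copy.

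A base mean with 15 digits is a sum of whole reads with 1 fixed weight per library. The weights were read from genes with a single read, and the control libraries were the ones with the same single-read genes in each of the 4 tables. Whole reads fitted the base means of 99.9969% of 32119 genes within 3 units of the last digit. Size factors computed again from these reads differed by at most 0.0218%. Genes with a base mean above 100000 were left out (13 genes, with the 1 gene without a fit). Python 3.11.15 with sympy 1.14.0 was used.

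Reads were scaled by median-of-ratios size factors, and log2 values with an offset of 0.5 reads were tested with limma 3.58.1 in R 4.3.3 (eBayes with trend, 5 groups in 1 fit), over 16540 genes with a mean of at least 10 reads. P-values were adjusted by the Benjamini-Hochberg method. Exonic GC content and lengths came from the GENCODE annotation lifted to GRCh37, and the correction used 50 bins of genes with a value, which 16051 had. Alternatives were upper-quartile scaling, no filter, voom weights, an offset of 2 reads, the GC correction, only the groups compared, and each library left out. The members, lists and tests were chosen with earlier results of these data known. The genes named were the members, the transfected genes, up to 3 called genes per list and comparison, and the gene closest in pattern to each member, and SGK1, PHLDA1, LIF and HSPA6 were named after their values were seen. Of the list of AP-1 targets 1 gene is not reported here, and the counts and medians leave it out. Intervals cover these libraries only.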

Additional observations from a re-analysis of the deposited data

Results flagged for a closer look

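Of the 14 tested AP-1 targets, MMP1 and CD44 are given because they passed in these same data, so the number of their calls is no separate evidence. They passed in 3 of 4 direct comparisons of a wild-type ATPase with its mutant, with limma across all genes. In BRG1-wt against BRG1-mut 0.0726% of all genes passed, and 19.5% had both libraries above both others. In BRM-wt against BRM-mut these shares were 0.230% and 9.24%. The log2 difference of MMP1 was 2.86 between BRG1-wt and BRG1-mut (2 of 2 libraries above both others, adjusted p = 0.0367) and 3.04 between BRM-wt and BRM-mut (2 of 2 libraries, adjusted p = 0.0189). That of CD44 was 5.67 between BRM-wt and BRM-mut (2 of 2 libraries, adjusted p = 0.0273), and between BRG1-wt and BRG1-mut it was 4.37 and did not pass (adjusted p = 0.0902). These calls were lost on leaving out 8, 6 and 7 of the 10 libraries in turn. No such difference was found for a member, and groups of 2 libraries were too small to look for single outlying libraries.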

How the results depend on the processing

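The number of members called was 0 in all 6 comparisons, and it stayed at 0 under each of the 94 alternatives over these comparisons, with 0 to 3 members at an unadjusted p under 0.05. The smallest adjusted p of a member was 0.131, after the GC correction in BRM-wt against control. Upper-quartile scaling shifted the median log2 difference of all genes by -0.26 in BRG1-mut against control and by -0.12 in BRG1-wt against control, and it turned the sign of 6 of 60 differences of members, none of which had been called, as the GC correction did for 17. No paired analysis was possible because the libraries recovered from the base means carry no replicate numbers. The 5 listings of exon events became 2 when an event had to be listed in both replicates, which left FOSB exon 2 in BRG1-mut, and 1 to 4 when a replicate was left out. The median ratio of the highest to the lowest base mean of a member among the 4 tables was 1.34, and 1.36 after scaling between tables. For MMP1 and CD44 the sign held under each alternative, and 53 of the 109 alternatives over their 7 calls lost the call. After the GC correction 2 AP-1 targets passed in BRG1-wt against BRG1-mut, in place of 1, and 3 in BRG1-wt and BRM-wt against control, with LIF added. HSPA6, a heat shock gene, passed in BRG1-wt.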
